A study of Mus musculus with 12 samples.

Results

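The genes described here are 10 members of the machinery with which liver cells sense bacterial products and inflammatory cytokines: Lbp, Cd14, Tlr4 and Tlr2 on the endotoxin and lipoprotein side, the adaptor Myd88, the interleukin-1 receptor Il1r1, the tumour necrosis factor receptor Tnfrsf1a, and the interleukin-6 family receptors Il6ra, Il6st and Osmr. They were taken from 55414 genes in the count table by a rule on names that used no measured value. Earlier results of these data were known when the rule was made. All 10 were among the 14919 genes with enough counts to be tested. RNA was sequenced from 12 libraries of primary mouse hepatocytes, which are the parenchymal cells of the liver taken into culture, in a study on loss of function of Hnf4a, a nuclear receptor that maintains hepatocyte gene expression, in sepsis. The groups were Hnf4a knockout (KO) cells with MJ041, KO cells with DMSO vehicle, wild-type (WT) cells with MJ041 and WT cells with DMSO vehicle, with 3 libraries each. MJ041 is known here by its code name only, as a candidate ligand. The labels used here give no dose, no time of exposure, no age or strain of the mice, and neither the exons removed nor the means of removal, and they do not say whether the 3 libraries of a group came from separate animals or cultures, so p-values measure only the spread between libraries.

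In the classical pathway, lipopolysaccharide-binding protein (LBP) extracts endotoxin from bacterial membranes and hands it to CD14, which passes it to the TLR4 receptor with its partner MD-2. TLR4, TLR2 and the interleukin-1 receptor all signal through the adaptor MYD88 to NF-kB. Interleukin-6 binds its receptor IL6RA, which pairs with the shared subunit gp130, encoded by Il6st, to activate STAT3, the route by which hepatocytes switch on acute-phase proteins, and hepatocytes themselves secrete LBP as one of these proteins.

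The libraries held 16740761 to 17902832 assigned reads each. Levels are given as CPM, read counts scaled to a common library size with TMM factors, fold changes as log2 ratios with the standard error of edgeR's quasi-likelihood fit, and a gene was called where its Benjamini-Hochberg adjusted p over all tested genes was below 0.05. Hnf4a itself had 61.1, 67.8 and 66.4 CPM in KO vehicle libraries and 121, 137 and 112 CPM in WT vehicle libraries, a KO over WT ratio of 0.527, so Hnf4a reads were reduced and not lost in the libraries labelled KO. With MJ041 it had 59.9, 76.0 and 66.7 CPM in KO and 166, 178 and 142 CPM in WT libraries, a ratio of 0.417. For MJ041 over vehicle in WT, the log2 fold change of Hnf4a was 0.39 ± 0.10, without overlap and not called (edgeR adjusted p = 0.0622). Hepatocyte markers such as Alb were abundant in all 12 libraries, with 10 markers summing to 27000.2 to 31582 CPM in KO vehicle and 57268 to 62781 CPM in WT vehicle libraries. Markers of other liver cells were also detected. The Kupffer cell and macrophage list, of which 19 of 20 genes could be tested, summed to 677 to 712 CPM in KO MJ041, 647 to 734 CPM in KO vehicle, 322 to 531 CPM in WT MJ041 and 375 to 675 CPM in WT vehicle libraries, with Cd163 alone at 0 in 3 of the 4 groups.

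Between genotypes with vehicle, the 10 genes did not move together: Lbp was higher in KO cells, while Cd14, Il1r1, Il6ra, Il6st and Myd88 were lower. That is 1 gene higher and 5 lower of 10. Of all 14919 genes tested, 54.5% were called in this comparison, 27.5% higher and 26.9% lower in KO, so the share of the 10 that passed is near the share of all genes. The median log2 fold change was -0.33 over the 10 genes and -0.002 over all genes tested. The comparison with MJ041 in both genotypes sets other libraries against each other, but all 12 libraries share the estimate of the spread. The labels do not say whether the 2 comparisons share animals. With MJ041, 2 of the 10 were higher in KO (Lbp and Osmr) and 4 lower (Cd14, Il1r1, Il6ra and Il6st). Of all genes, 54.4% were called with MJ041, 26.8% higher and 27.6% lower. The median was -0.03 over the 10 and 0.02 over all genes. Cd14, Lbp, Il1r1, Il6ra and Il6st, 5 genes, were called in the same direction in both.

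**Figure D1:**
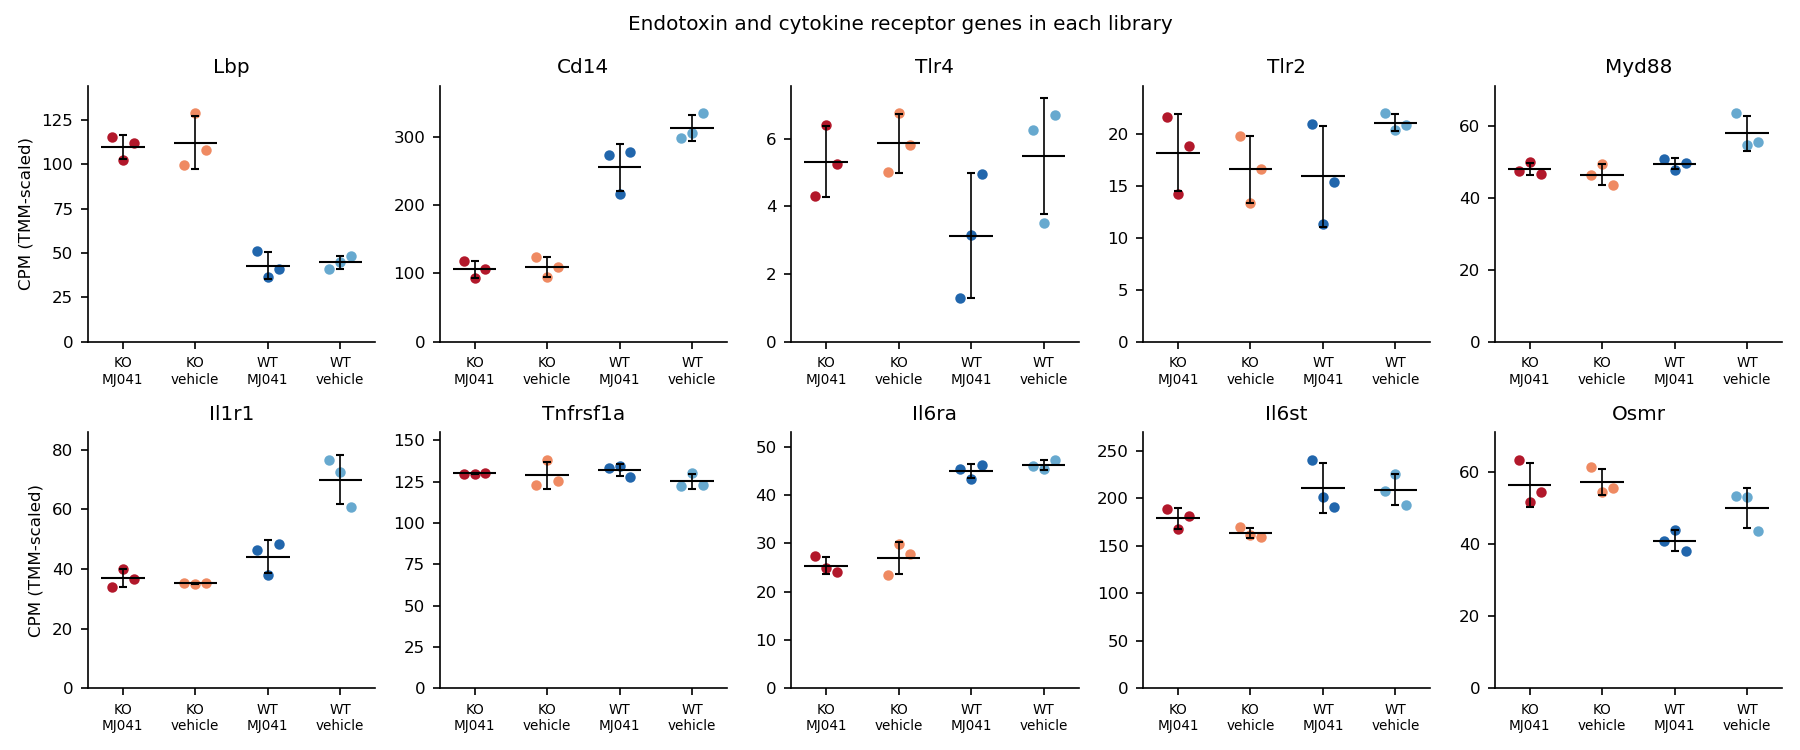
Level of each of the 10 genes in every library (y axis, TMM-scaled CPM, each panel from 0), by group on the x axis; points are libraries, the horizontal line is the mean and the bar is the SD of 3 libraries. Lbp lies higher in all 6 KO than in all 6 WT libraries, Cd14 and Il6ra lie lower, and Il1r1 is highest in WT vehicle.

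Lbp (ENSMUSG00000016024), the secreted carrier that extracts endotoxin from membranes, was the only one of the 10 called higher in KO with both treatments. It had 99.5, 129 and 108 CPM in KO vehicle libraries and 41.0, 45.1 and 48.4 CPM in WT vehicle libraries. With MJ041 it had 115, 102 and 112 CPM in KO and 51.1, 36.5 and 41.3 CPM in WT libraries. Every KO library lay above every WT library, whichever the treatment. The log2 fold change of KO over WT was 1.32 ± 0.12 with vehicle (edgeR adjusted p = 1.43e-06), a ratio of 2.50, and 1.36 ± 0.12 with MJ041 (edgeR adjusted p = 1.17e-06). In bulk libraries a change in the share of cells of a type and a change in RNA per cell cannot be told apart, which holds for every gene below.

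Cd14 (ENSMUSG00000051439), the co-receptor that takes endotoxin from LBP, went the other way from Lbp. It stood at 124, 95.3 and 110.1 CPM in KO vehicle libraries, against 299, 306 and 334 CPM in WT vehicle libraries. With MJ041 it stood at 118, 93.3 and 106 CPM in KO and 273, 216 and 278 CPM in WT. The 6 KO libraries formed a narrow band well below the lowest WT library. KO over WT was -1.51 ± 0.12 on the log2 scale with vehicle (edgeR adjusted p = 4.23e-07; ratio 0.351) and -1.27 ± 0.12 with MJ041 (edgeR adjusted p = 1.63e-06). Cd14 is also a macrophage gene, and the summed Kupffer cell and macrophage markers lay at 647 to 734 CPM in KO vehicle and 375 to 675 CPM in WT vehicle libraries. Of the 19 tested markers, 3 were higher in KO (Mpeg1, Slc40a1 and Vsig4), 1 was lower (Cd68), and 15 were not called. With vehicle, 54.5% of all genes tested were called between genotypes.

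Tlr4 (ENSMUSG00000039005), the signalling receptor for endotoxin, was the scarcest of the 10 and showed no called difference between genotypes. It had 5.03, 6.74 and 5.80 CPM in KO vehicle and 6.25, 3.52 and 6.68 CPM in WT vehicle libraries, which overlap, and its log2 fold change was 0.09 ± 0.35 with a 95% interval of -0.66 to 0.85 (edgeR adjusted p = 0.842). With MJ041 the values were 4.30, 6.41 and 5.26 CPM in KO and 1.30, 3.14 and 4.97 CPM in WT. The 3 WT MJ041 libraries spread widely, and the difference of 0.76 ± 0.37 was not called (edgeR adjusted p = 0.0985). It was 1.25 and called without replicate 3 of WT MJ041 (edgeR adjusted p = 0.0111), and was called with no filter on low counts (edgeR adjusted p = 0.00702). With the level of Kupffer cell, endothelial and stellate cell markers as a covariate it was 0.08 (edgeR adjusted p = 0.805), and without both WT MJ041 libraries low in these markers it was 0.09 (edgeR adjusted p = 0.851). Tlr2 (ENSMUSG00000027995), which recognises bacterial lipoproteins, had 19.8, 13.4 and 16.7 CPM in KO vehicle and 22.0, 20.4 and 20.9 CPM in WT vehicle libraries. The WT libraries were close together and all above the KO libraries, yet the log2 fold change of -0.34 ± 0.20 was not called (edgeR adjusted p = 0.172; 95% interval -0.79 to 0.10). It was called with no filter on low counts, at -0.33 (edgeR adjusted p = 0.045). With MJ041, Tlr2 had 21.6, 14.2 and 18.8 CPM in KO and 21.0, 11.3 and 15.4 CPM in WT libraries, a log2 fold change of 0.19 ± 0.21 (edgeR adjusted p = 0.452), with overlapping groups.

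Il1r1 (ENSMUSG00000026072), the signalling receptor for interleukin-1, carried the lowest adjusted p of the 10 in the MJ041 comparison within WT and was also lower in KO. Its level was 35.4, 35.1 and 35.2 CPM in KO vehicle libraries and 76.5, 72.4 and 60.8 CPM in WT vehicle libraries. Under MJ041 it was 34.1, 40.0 and 36.8 CPM in KO and 46.4, 37.9 and 48.3 CPM in WT. WT vehicle stood above the other 3 groups without overlap, and the KO MJ041 and WT MJ041 groups overlapped. The KO over WT ratio with vehicle was 0.504, a log2 fold change of -0.99 ± 0.10 (edgeR adjusted p = 4.03e-06). With MJ041 the log2 fold change was -0.26 ± 0.10, with an edgeR adjusted p of 0.0486 that passed in 3 of 9 other settings and in 5 of 12 fits that left out 1 library (edgeR adjusted p from 0.00577 to 0.156).

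Myd88 (ENSMUSG00000032508), the adaptor shared by the TLR and interleukin-1 receptors, had 46.4, 49.6 and 43.7 CPM in KO vehicle and 63.6, 54.9 and 55.8 CPM in WT vehicle libraries. The groups did not overlap, and the log2 fold change was -0.32 ± 0.07 (edgeR adjusted p = 0.00162). With MJ041 the libraries held 47.6, 50.1 and 46.6 CPM in KO and 51.0, 48.0 and 49.9 CPM in WT. They overlapped, and the log2 fold change was -0.04 ± 0.07 with a 95% interval of -0.20 to 0.11 (edgeR adjusted p = 0.616). Whether the genotype difference itself depended on MJ041 was tested by the interaction of genotype and treatment, which for Myd88 was 0.27 ± 0.10 on the log2 scale (edgeR adjusted p = 0.253).

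The promoter windows of Il1r1 and Myd88 are shown because these were the receptor and the adaptor of the interleukin-1 route that were both lower in KO with vehicle. They run from 250 bases before to 50 bases after the start of transcription, in RefSeq on GRCm38.p6, an earlier build than the mm39 named for the reads. Il1r1 has 2 windows on the plus strand, at chr1:40224830-40225129 and chr1:40266336-40266635, and Myd88 has 1 on the minus strand, at chr9:119339969-119340268. Each is written 5′ to 3′ on the gene's strand, and capitals mark the bases that matched a searched motif.
Il1r1, upstream window: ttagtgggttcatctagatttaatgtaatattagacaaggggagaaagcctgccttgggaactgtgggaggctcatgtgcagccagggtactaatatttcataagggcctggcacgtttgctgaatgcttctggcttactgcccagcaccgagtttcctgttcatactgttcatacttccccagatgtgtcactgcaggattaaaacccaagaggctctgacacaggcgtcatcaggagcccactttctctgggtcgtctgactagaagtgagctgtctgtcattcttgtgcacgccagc
Il1r1, downstream window: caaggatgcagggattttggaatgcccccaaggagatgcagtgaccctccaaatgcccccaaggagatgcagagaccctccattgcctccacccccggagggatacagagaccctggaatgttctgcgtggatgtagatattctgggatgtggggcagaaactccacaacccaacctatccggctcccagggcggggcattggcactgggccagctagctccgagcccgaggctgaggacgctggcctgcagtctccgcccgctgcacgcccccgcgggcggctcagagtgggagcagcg
Myd88: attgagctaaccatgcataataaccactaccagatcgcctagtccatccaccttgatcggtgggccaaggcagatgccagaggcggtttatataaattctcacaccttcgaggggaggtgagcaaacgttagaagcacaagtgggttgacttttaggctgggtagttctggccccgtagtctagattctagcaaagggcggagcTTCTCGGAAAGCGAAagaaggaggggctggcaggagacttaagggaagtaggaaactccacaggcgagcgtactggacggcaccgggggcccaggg
Windows of 7 of the 10 genes were used, 8 in all (Tlr2, Il1r1, Il6ra, Tnfrsf1a, Myd88, Il6st and Osmr). They were searched on both strands for 5 motifs. The NF-kB form GGACTTTCC occurs in 0.344% of all 32851 windows of the same length, the HNF4 form CAAAGTCCA in 0.475% and the C/EBP form TTGCGCAA in 0.183%, and none of these letters was found in the 8 windows. The STAT form TTCNNNGAA, held by 8.3% of all windows, matched in Myd88 from -46 to -38 relative to the start and in Tnfrsf1a. The interferon-response form TTCNNTTTC, held by 8.56% of all windows, matched in Myd88 on the opposite strand from -40 to -32, so that it overlaps the STAT match and both together make the 15 bases in capitals. A match is a description of letters only.

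Tnfrsf1a (ENSMUSG00000030341), the main receptor for tumour necrosis factor, was the steadiest of the 10. It had 123, 138 and 125 CPM in KO vehicle and 122, 130.5 and 123 CPM in WT vehicle libraries, and 129.7, 129.9 and 130.5 CPM in KO and 134, 134 and 128 CPM in WT libraries with MJ041. The groups overlapped in both. The 95% interval of the log2 fold change of KO over WT was -0.07 to 0.16 with vehicle (edgeR adjusted p = 0.531) and -0.14 to 0.09 with MJ041 (edgeR adjusted p = 0.758).

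Both subunits of the interleukin-6 receptor were lower in KO. Il6ra (ENSMUSG00000027947), the ligand-binding subunit, had 23.4, 29.8 and 27.9 CPM in KO vehicle and 46.0, 45.3 and 47.3 CPM in WT vehicle libraries. With MJ041 it had 27.3, 24.8 and 24.1 CPM in KO and 45.4, 43.4 and 46.2 CPM in WT. All 6 KO libraries lay below all 6 WT libraries, with a log2 fold change of -0.77 ± 0.08 with vehicle (edgeR adjusted p = 5.42e-06; ratio 0.585) and -0.82 ± 0.08 with MJ041 (edgeR adjusted p = 3.37e-06). Il6st (ENSMUSG00000021756), the gp130 subunit that the interleukin-6 family shares, had 169, 161 and 159 CPM in KO vehicle and 208, 225 and 193 CPM in WT vehicle libraries. Under MJ041 it had 189, 167 and 181 CPM in KO and 240.2, 201 and 190.4 CPM in WT. The groups did not overlap in either pair, but the gap was narrow with MJ041. Its log2 fold change was -0.35 ± 0.08 with vehicle (edgeR adjusted p = 0.00327) and -0.24 ± 0.08 with MJ041 (edgeR adjusted p = 0.0319). The MJ041 call for Il6st was lost without replicate 1 of WT MJ041 (edgeR adjusted p = 0.153) or replicate 2 of KO MJ041 (edgeR adjusted p = 0.062), and with scaling by total counts only (edgeR adjusted p = 0.0801). With the level of Kupffer cell, endothelial and stellate cell markers as a covariate, Il6st was at -0.06 (edgeR adjusted p = 0.515), and without both WT MJ041 libraries that were low in these markers it was at -0.10 (edgeR adjusted p = 0.451).

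Osmr (ENSMUSG00000022146), the oncostatin M receptor subunit that pairs with gp130, was called in the opposite direction to both of them in the MJ041-treated cells. It had 63.3, 51.7 and 54.3 CPM in KO MJ041 and 40.9, 44.0 and 38.1 CPM in WT MJ041 libraries, which did not overlap, and the log2 fold change was 0.46 ± 0.10 (edgeR adjusted p = 0.00134). With vehicle it had 61.4, 54.5 and 55.6 CPM in KO and 53.3, 53.1 and 43.5 CPM in WT libraries. All 3 KO libraries were above all 3 WT libraries there too, but the log2 fold change of 0.19 ± 0.10 was not called (edgeR adjusted p = 0.105; 95% interval -0.01 to 0.40). With the marker covariate it was called, at 0.21 (edgeR adjusted p = 0.0345), which was 1 of 9 other settings and the only one that called it. None of the 12 fits that left out 1 library called it (edgeR adjusted p from 0.0917 to 0.54). The interaction of genotype and MJ041 for Osmr was 0.27 ± 0.14 (edgeR adjusted p = 0.422).

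**Figure D2:**
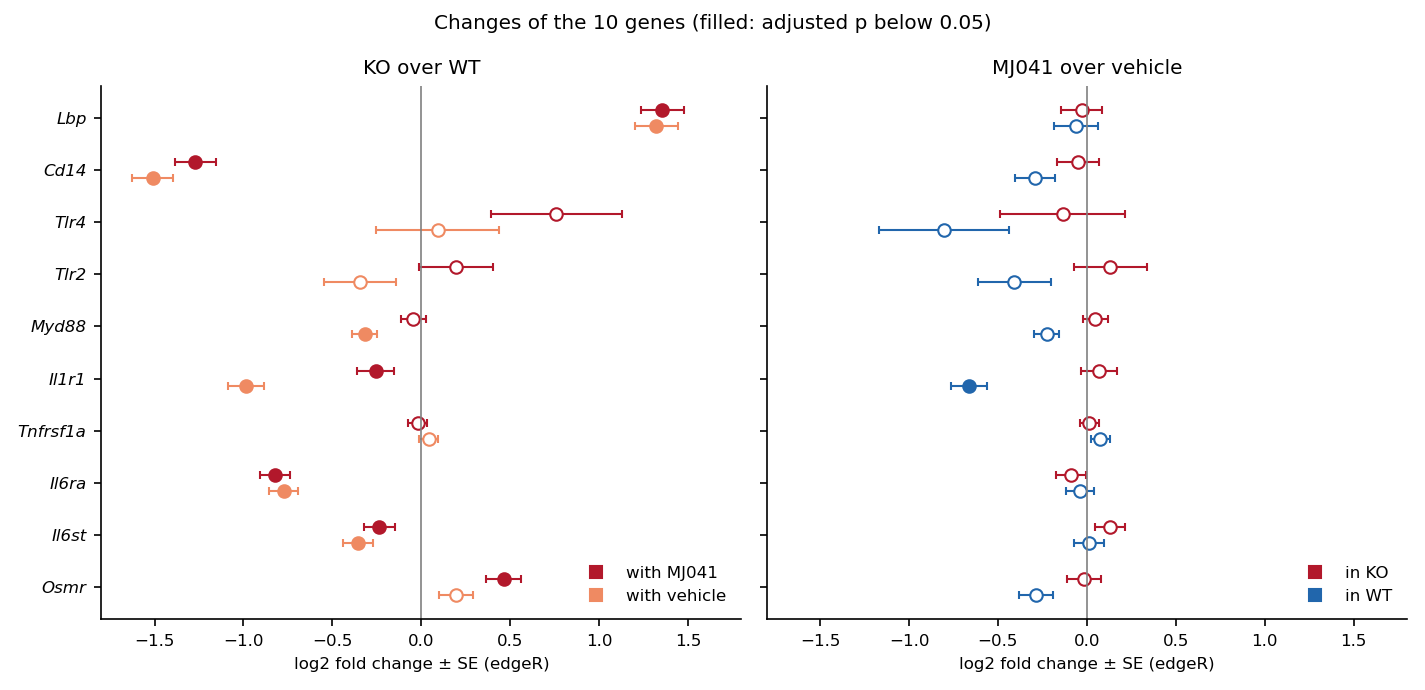
Log2 fold change of each of the 10 genes (x axis, with its standard error from edgeR) for KO over WT in the left panel and MJ041 over vehicle in the right panel; filled points passed an adjusted p of 0.05. Lbp stands to the right in both KO over WT comparisons, and Il1r1 is the only filled point for MJ041, at -0.66 in WT.

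MJ041 was then set against vehicle within each genotype. In WT cells 1 of the 10 genes was called, Il1r1, which was lower with MJ041, against 2.21% of all genes called, 1.19% higher and 1.02% lower. Il1r1 had 46.4, 37.9 and 48.3 CPM with MJ041 and 76.5, 72.4 and 60.8 CPM with vehicle in WT libraries, with no overlap, a log2 fold change of -0.66 ± 0.10 and a ratio of 0.632 (edgeR adjusted p = 0.0294). This comparison uses the same WT vehicle libraries as KO against WT with vehicle, so the position of those 3 libraries enters both. The call was lost when 1 of 5 libraries was left out, with edgeR adjusted p = 0.163 without replicate 1 of WT vehicle, 0.101 without replicate 2 of WT MJ041, 0.066 without replicate 3 of KO MJ041, and 0.0508 and 0.0607 without replicates 1 and 3 of KO vehicle, while the log2 fold change stayed between -0.77 and -0.58 over all 12 such fits.

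Next to Il1r1, Cd14 had 273, 216 and 278 CPM with MJ041 and 299, 306 and 334 CPM with vehicle in WT libraries, without overlap, and a log2 fold change of -0.29 ± 0.11 that was not called (edgeR adjusted p = 0.165). Myd88 had 51.0, 48.0 and 49.9 CPM with MJ041 and 63.6, 54.9 and 55.8 CPM with vehicle, again without overlap and not called, at -0.23 ± 0.07 (edgeR adjusted p = 0.0949). The groups overlapped narrowly for Osmr, at -0.29 ± 0.10 (edgeR adjusted p = 0.121). Tlr4 and Tlr2 had log2 fold changes of -0.80 ± 0.37 and -0.41 ± 0.20 with adjusted p values of 0.227 and 0.273 by edgeR. Tlr4 passed without replicate 3 of WT MJ041, at -1.31 (edgeR adjusted p = 0.0323). At an unadjusted p under 0.05, 5 of the 10 genes passed in WT, against 3219 of all 14919 genes, or 21.6%. For Lbp, Tnfrsf1a, Il6ra and Il6st the 95% intervals of the log2 fold change of MJ041 over vehicle in WT were -0.33 to 0.20, -0.04 to 0.19, -0.21 to 0.14 and -0.17 to 0.20.

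Tlr4 and the markers of other liver cells were low in the same WT MJ041 libraries. Tlr4 had 1.30, 3.14 and 4.97 CPM in WT MJ041 replicates 1, 2 and 3, and the stellate cell markers (13 of 18 tested) summed to 103, 111 and 164 CPM, the endothelial markers (18 of 18 tested) to 200, 217 and 376 CPM and the Kupffer cell and macrophage markers to 322, 377 and 531 CPM in the same order. Replicates 1 and 2 were the low ones in each. In WT vehicle libraries these lists summed to 159.6 to 196, 319.6 to 515 and 375 to 675 CPM. None of the 19, 18 and 13 tested markers was called for MJ041 in WT by edgeR (3 Kupffer cell and macrophage, 9 endothelial and 7 stellate markers had an unadjusted p under 0.05, against 21.6% of all genes), with median log2 fold changes of -0.61 for Kupffer cell and macrophage, -0.77 for endothelial and -0.41 for stellate cell markers. With the level of these markers as a covariate the log2 fold change of MJ041 in WT was -0.28 for Tlr4 (edgeR adjusted p = 0.658) and -0.66 for Il1r1 (edgeR adjusted p = 0.0864). Without both low libraries it was -0.14 for Tlr4 (edgeR adjusted p = 0.998) and -0.53 for Il1r1 (edgeR adjusted p = 0.654, unadjusted p = 0.00143), with 1 WT MJ041 library then assumed to vary like the other groups. The part of other cells in these values was not tested further.

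**Figure D3:**
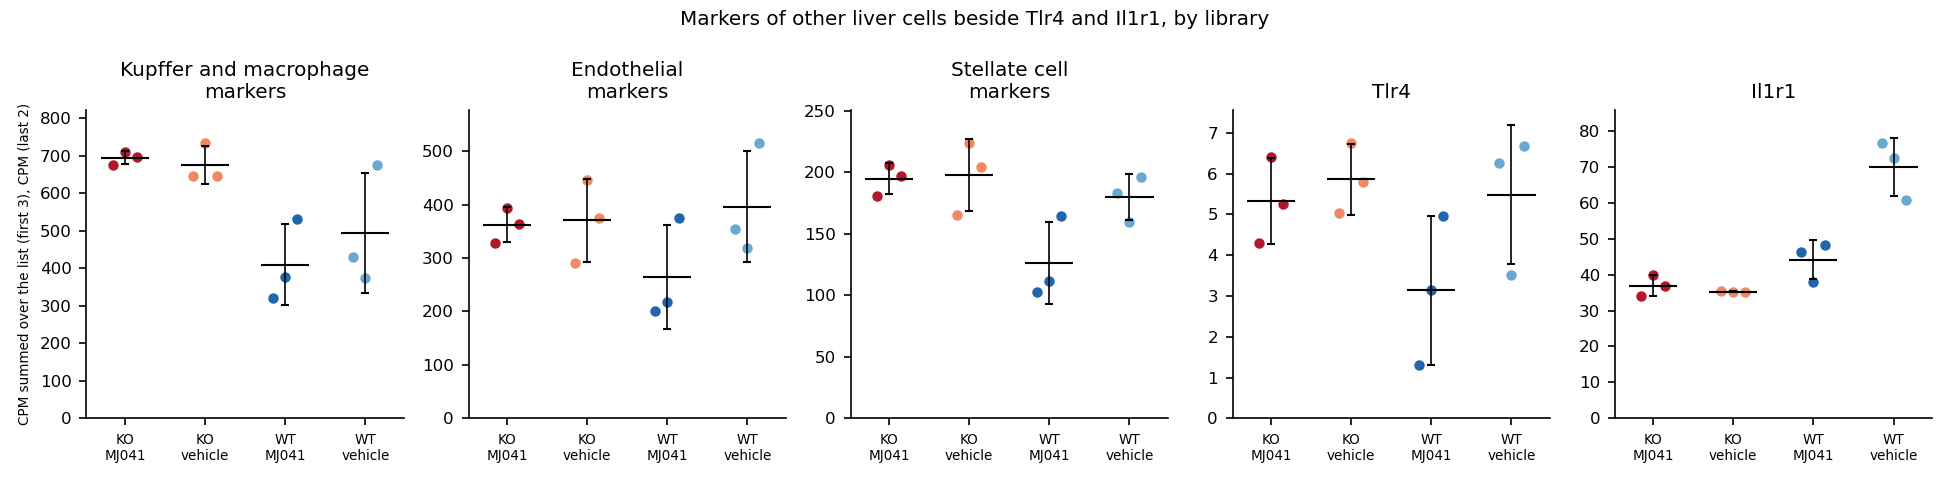
Markers of other liver cells beside Tlr4 and Il1r1 in every library; the first 3 panels give CPM summed over each marker list, the last 2 give CPM, with groups on the x axis, the mean as a line and the SD of 3 libraries as a bar. In WT MJ041, the 2 libraries with the lowest stellate, endothelial and Kupffer sums also have the lowest Tlr4, while all 3 have Il1r1 below WT vehicle.

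In KO cells MJ041 changed none of the 10 genes by the test, and 0% of all 14919 genes were called with edgeR, 414 of them having an unadjusted p under 0.05. The log2 fold changes ran from -0.14 for Tlr4 to 0.13 for Il6st and 0.13 for Tlr2, with 5 genes above 0 and 5 below, and all adjusted p values were 1 by edgeR. No gene of the 10 passed an unadjusted p under 0.05, nor was any called by DESeq2 or limma voom. Il1r1 had 34.1, 40.0 and 36.8 CPM in KO MJ041 and 35.4, 35.1 and 35.2 CPM in KO vehicle libraries, a log2 fold change of 0.07 ± 0.10 with a 95% interval of -0.15 to 0.29. The intervals were -0.31 to 0.20 for Cd14, -0.28 to 0.22 for Lbp and -0.27 to 0.10 for Il6ra.

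The test of whether MJ041 acted differently by genotype called 0 of the 10 genes and 0% of all genes with edgeR, with 1980 genes at an unadjusted p under 0.05. Il1r1 and Myd88, 2 of the 10, passed an unadjusted p under 0.05. For Il1r1 the interaction was 0.73 ± 0.14 on the log2 scale (edgeR adjusted p = 0.119), which is the value in KO minus that in WT. DESeq2 called this interaction for Il1r1 (DESeq2 adjusted p = 0.00239) as 1 of 227 genes over the whole table, and limma voom called none. It also passed in edgeR without replicate 3 of WT MJ041 (adjusted p = 0.0136), where 852 genes of the whole table were called. That fit keeps only the WT MJ041 libraries low in markers of other liver cells. With the marker covariate the Il1r1 interaction was 0.73 and was not called (edgeR adjusted p = 0.19). Without both of those low libraries it was 0.60.

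Levels of the 10 genes were compared with each other per kilobase of exon. In KO vehicle libraries the mean CPM per kilobase was 63.4 for Cd14, 49.7 for Tnfrsf1a, 23.2 for Lbp, 18.1 for Myd88 and 14.7 for Il6st, followed by 5.54 for Il1r1, 5.51 for Tlr2, 4.72 for Osmr, 3.12 for Il6ra and 1.05 for Tlr4. Il1r1 and Tlr2 overlapped between libraries there, as did Tlr2 and Osmr, and no other neighbours did. In WT vehicle libraries the mean was 181 for Cd14, 48.3 for Tnfrsf1a, 22.5 for Myd88, 18.8 for Il6st, 11.0 for Il1r1 and 9.28 for Lbp, then 7.01 for Tlr2, 5.34 for Il6ra, 4.12 for Osmr and 0.987 for Tlr4. Il1r1 and Lbp were the neighbours that overlapped. Lbp thus stood in place 3 in KO and place 6 in WT, and Cd14 and Tnfrsf1a held the first 2 places in both. With MJ041 the mean of Lbp was 22.8 CPM per kilobase in KO, in place 3, and 8.89 in WT, in place 5.

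The partners of these receptors were followed with lists of pathway genes that exclude the 10. In KO against WT with vehicle, 54.5% of all 14919 genes tested were called, 27.5% higher and 26.9% lower. The list counts below were not tested against that share. Of 11 tested endotoxin and TLR receptor genes, 3 were higher and 1 lower in KO with vehicle, with a median log2 fold change of -0.34. The lower one was Ly96, which encodes the MD-2 partner of TLR4, with 13.6, 13.6 and 12.6 CPM in KO vehicle and 25.8, 26.7 and 32.4 CPM in WT vehicle libraries and a log2 fold change of -1.09 ± 0.14 (edgeR adjusted p = 2.75e-05). Tlr5, the flagellin receptor, was higher at 0.54 ± 0.16 (edgeR adjusted p = 0.0102), and Tlr1, a TLR2 partner near the limit of detection, at 1.28 ± 0.43 (edgeR adjusted p = 0.0232). Of 15 adaptors and kinases of the TLR and interleukin-1 routes, 3 were higher and 9 lower, with a median of -0.36. Tollip, an inhibitory adaptor, had 83.5 ± 3.31 CPM in KO vehicle and 133 ± 4.67 CPM in WT vehicle (SD, n = 3 each), Irak3, a kinase-family inhibitor, had 30.8 ± 1.03 and 73.9 ± 8.92 CPM, and Tirap, the bridging adaptor, had 56.0 ± 6.22 and 87.3 ± 5.73 CPM in the same order. All 3 were lower in KO.

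The interleukin-1 family list had 6 tested genes, of which 3 were lower in KO and 3 were not called, with a median of -1.03. Il1rap, the obligate co-receptor of Il1r1, had 15.7, 17.2 and 15.1 CPM in KO vehicle and 41.0, 39.7 and 40.7 CPM in WT vehicle libraries, a log2 fold change of -1.34 ± 0.07 (edgeR adjusted p = 2.19e-08). Il1rn, the secreted antagonist of the same receptor, had 28.0, 38.4 and 34.7 CPM in KO vehicle and 132, 97.6 and 139.8 CPM in WT vehicle libraries, a log2 fold change of -1.87 ± 0.19 (edgeR adjusted p = 4.42e-06). Receptor, co-receptor and antagonist of interleukin-1 were thus all lower in KO with vehicle. Il18rap was lower too, at -1.41 ± 0.26 (edgeR adjusted p = 0.000536).

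Of 16 tumour necrosis factor signalling genes, 4 were higher and 9 lower in KO with vehicle, with a median of -0.28, while Tnfrsf1a itself was not called. Ripk1, the kinase recruited to that receptor, had 63.1 ± 2.47 CPM in KO vehicle and 94.1 ± 2.02 CPM in WT vehicle (SD, n = 3 each), and its log2 fold change was -0.58 ± 0.05 (edgeR adjusted p = 1.26e-06). Traf2, another receptor-proximal adaptor, and Tnfrsf21, a death receptor, were lower at -0.57 and -1.41. Of 14 tested gp130 and JAK-STAT genes, 1 was higher and 7 were lower, with a median of -0.32. Lifr, the leukaemia inhibitory factor receptor that pairs with gp130, had 41.6, 46.1 and 40.1 CPM in KO vehicle and 86.8, 93.1 and 94.8 CPM in WT vehicle libraries, a log2 fold change of -1.10 ± 0.07 (edgeR adjusted p = 5.69e-08). Stat3, the transcription factor downstream of gp130, was lower at -0.44 ± 0.05 (edgeR adjusted p = 1.4e-05) and the adaptor Grb2 at -0.58 ± 0.07 (edgeR adjusted p = 9.56e-06). Among 8 tested ligands, 1 was higher (Ctf1, cardiotrophin-1, 1.24) and 4 were lower, among them Clcf1 at -0.40 and Il18 at -0.56, with a median of -0.53.

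**Figure D4:**
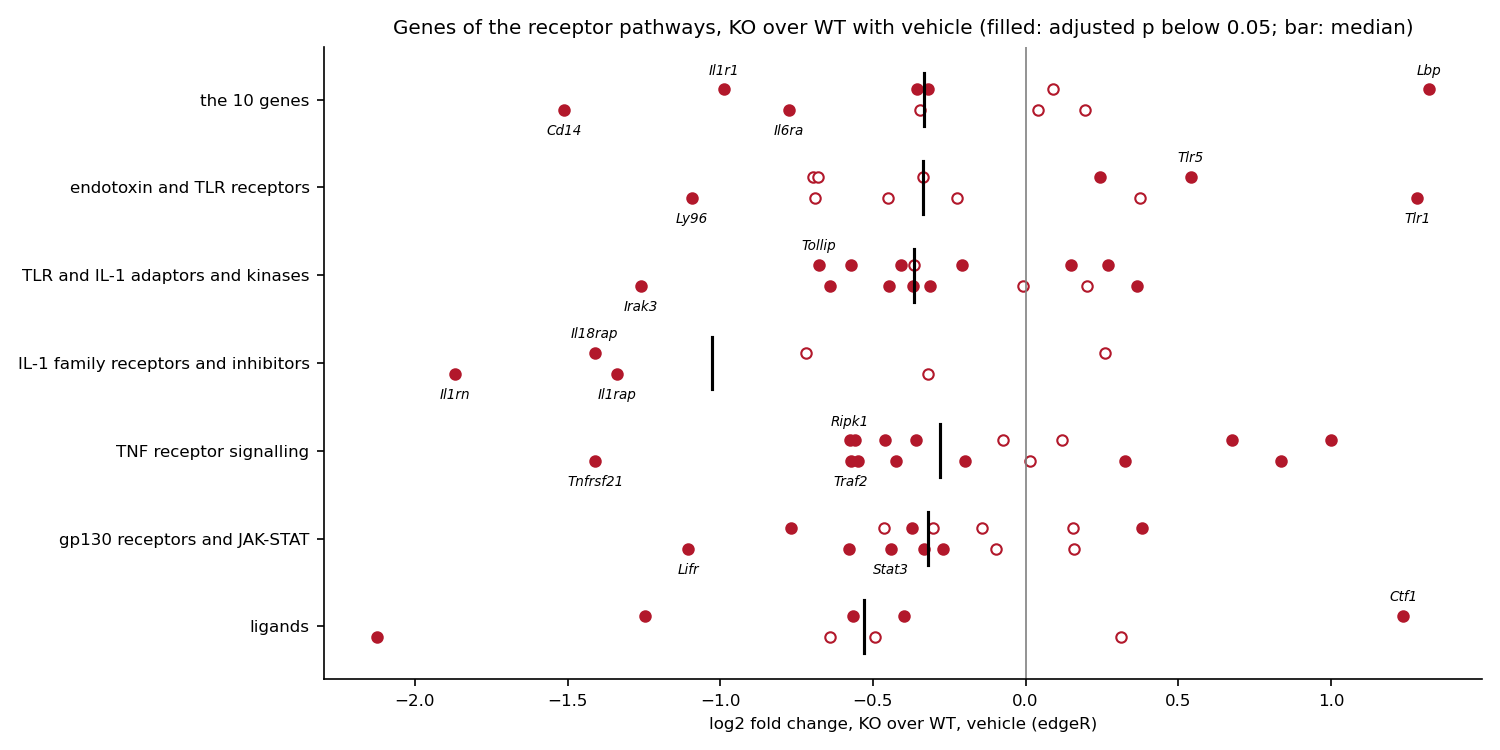
Log2 fold change of KO over WT with vehicle (x axis, edgeR) for the 10 genes and the genes of 6 pathway lists; each point is a gene, filled where the adjusted p was below 0.05, and the black bar is the median of each row. The medians run from -1.03 for the interleukin-1 family list to -0.28 for tumour necrosis factor signalling, against -0.002 over all genes tested.

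With MJ041 in both genotypes the same lists were counted again, against 54.4% of all genes called. There were 2 higher and 1 lower of 11 endotoxin and TLR receptors, 3 and 9 of 15 adaptors and kinases, and 1 and 4 of 6 interleukin-1 family genes. There were 5 and 8 of 16 tumour necrosis factor signalling genes, 2 and 7 of 14 gp130 and JAK-STAT genes, and 2 and 0 of 8 ligands. The median log2 fold changes were 0.46, -0.38, -1.19, -0.16, -0.15 and 0.55 in that order. The medians of the endotoxin and TLR receptors and of the ligands were thus above 0 with MJ041 and below 0 with vehicle. No gene of either list was called in the interaction of genotype and MJ041 by edgeR. For the endotoxin and TLR receptors both medians fell on scarce genes that were not called. These were Cd180 with vehicle (-0.34 ± 0.53) and Tlr9 with MJ041 (0.46 ± 0.47). Within WT, 2.21% of all genes were called for MJ041, 1.19% higher and 1.02% lower. Tlr3, the double-stranded RNA receptor, was lower with MJ041 in WT, the only called gene of its list (-0.57 ± 0.10, edgeR adjusted p = 0.0294). It had 28.1, 28.5 and 31.6 CPM under MJ041 and 45.0, 36.2 and 50.0 CPM under vehicle. Il1rn was the only called gene of the interleukin-1 family list, with 66.9, 49.2 and 84.3 CPM under MJ041 and 132, 97.6 and 139.8 CPM under vehicle in WT (-0.88 ± 0.19, edgeR adjusted p = 0.0385). In the gp130 and JAK-STAT list Socs3, the feedback inhibitor of gp130, was lower (-0.87 ± 0.19, edgeR adjusted p = 0.0417) and Stat5b was higher (0.27 ± 0.06, edgeR adjusted p = 0.0452). Among the ligands Il6 was lower, with 0, 0.0616 and 0.473 CPM under MJ041 and 2.33, 1.37 and 2.93 CPM under vehicle in WT libraries (edgeR adjusted p = 0.0317). Its WT MJ041 values rest on 0, 1 and 8 reads. Tlr3, Il1rn, Socs3 and Il6 were lower in replicates 1 and 2 of WT MJ041 than in replicate 3, as were the markers of other liver cells. Stat5b did not show that order. None of these calls held with the marker covariate or in the 2-group fit, where 0 genes of the whole table were called for MJ041 in WT. No adaptor, kinase or tumour necrosis factor signalling gene of these lists was called for MJ041 in WT by edgeR. At an unadjusted p under 0.05 there were 2 of 15 and 2 of 16, against 21.6% of all genes. Irak1, Tab2, Cflar and Ltbr, the most abundant of these 2 lists, had log2 fold changes of 0.08, 0.02, -0.28 and 0.07. In KO, no gene of the 6 lists was called for MJ041 by edgeR, and none had an unadjusted p under 0.05.

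For each of the 10, the genes with the most similar profile over the 12 libraries were found as those with the smallest root mean square (RMS) difference between centred log2 CPM values, among tested genes that averaged 5 CPM or more. This is a description of shape with no test, and all profiles share the same libraries. Lbp was nearest to C3, the central complement component, at 0.111, and to Hpn, a hepatocyte surface protease, at 0.126. Cd14 was nearest to Taf7 at 0.106 and Tfpi2 at 0.123. Tlr4 was nearest to Cd55 at 0.197 and Fcgr2b, an Fc receptor, at 0.210, and Tlr2 to Nfkbia, the inhibitor of NF-kB, at 0.153 and Elac1 at 0.170. Il1r1 was nearest to Nfkb1, an NF-kB subunit, at 0.132 and Ccdc71l at 0.143, and Myd88 to Ube2l6 at 0.0509 and Cmtm6 at 0.0628. Tnfrsf1a was nearest to Rab8a at 0.0325 and Api5 at 0.0347, against an SD of its own log2 CPM of 0.06. Il6ra was nearest to H2-K2 at 0.0693 and Gna13 at 0.0723, and Il6st to Mocs1 at 0.0511 and Brd7 at 0.0582. For Osmr, Prpf39 lay at 0.0994.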

How the data were processed

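Total RNA from primary mouse hepatocytes was made into stranded TruSeq libraries and sequenced on an Element AVITI instrument, per the labels' protocols. The deposited table holds the authors' raw read counts per Ensembl gene for all 12 libraries, with no normalization. Tools listed in the submitters' processing notes are STAR 2.7.10b, Trimmomatic 0.34, featureCounts, FastQC and DESeq2, with mm39 as the build. Their roles, the annotation release and the strand and multi-mapping settings are not given in the sources used here, so reads of overlapping, antisense or near-identical genes may be shared. Gene symbols came from a name table for 52081 of 55414 IDs.

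Genes were kept with edgeR's filterByExpr (minimum count 10), scaled by TMM and fitted with edgeR 4.0.16 (R 4.3.3) in 1 quasi-likelihood model of the 4 groups, which gave all 5 comparisons. Library totals ran from 16740761 to 17902832, and the chi-square statistic per degree of freedom between libraries of a group was at least 4.39, so none was a repeat. P-values were adjusted by Benjamini-Hochberg over all 14919 genes, at a threshold of 0.05. Standard errors were derived from the log2 fold change and the F statistic. Levels per kilobase used exon lengths of an older annotation (GENCODE vM21). The log2 CPM profiles used a prior count of 2. The marker covariate was the mean log2 CPM of the Kupffer cell, endothelial and stellate cell markers. Alternatives were DESeq2 1.42.0, limma 3.58.1 voom, other scalings, no filter, 2-group fits, a replicate block, a marker covariate and each library left out; leaving out both low WT MJ041 libraries was chosen after seeing the data. The code was tested on simulated data.

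All 10 genes were described in every comparison. Named beside them were, per pathway list, the 3 called genes with the smallest adjusted p in KO against WT with vehicle and in MJ041 against vehicle in WT, or the 2 most abundant where none was called, and the 2 nearest profiles per gene; a few results that this rule selects are not reported here. Genes and lists were chosen with earlier results of these data known. Same-numbered libraries were not treated as pairs, since the labels do not tie them and their deviations did not go together in every pair. The replicate block among the alternatives was shared by both genotypes, and pairing within a genotype was not fitted.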

Additional observations from a re-analysis of the deposited data

How the results depend on the processing

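Between genotypes, the count of the 10 genes called was 6 to 7 with vehicle and 4 to 7 with MJ041 under every setting run, against 6 in each. Over 1040 alternative values of the 50 gene results, none reversed a called direction, 26 lost a call and 12 gained one. For MJ041 against vehicle in WT, where 1 gene was called, the count was 4 with no filter on low counts (Tlr4, Cd14, Il1r1 and Osmr), 0 when only the 2 groups compared were fitted, 0 with the marker covariate, 0 without both WT MJ041 libraries low in stellate markers, and 0 to 2 when each library was left out. The interaction, with 0 called, gave 1 with no filter and 1 with DESeq2 (Il1r1 in both), and 0 to 1 when each library was left out. For MJ041 in KO the count was 0 in all settings. Over the whole table, 329 genes were called for MJ041 in WT, against 1667 with no filter, 906 with DESeq2 and 402 with limma voom. The count was 0 in the 2-group fit and with the marker covariate. With each library left out it ran from 0 to 2059, the highest without replicate 3 of WT MJ041. It was 0 without replicate 2 of WT MJ041, replicate 1 of WT vehicle, replicate 3 of KO MJ041, or replicate 1 or 3 of KO vehicle. The cause of these differences was not tested.

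With the replicate number as a block, 7 of the 10 genes were called between genotypes with vehicle, adding Tlr2 (edgeR adjusted p = 0.0217), 5 with MJ041, losing Il1r1 (edgeR adjusted p = 0.065), and 1 for MJ041 in WT. Deviations of same-numbered libraries were correlated over 0.1 in 4 of 6 cases within a genotype (-0.01 to 0.50) and 3 of 12 between genotypes (-0.10 to 0.16), so not in every pair. The block was shared by both genotypes, so it does not model pairs within a genotype. Tlr2 was highest in replicate 1 and lowest in replicate 2 of each group.

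The 3 libraries per group and unknown culture origin limit the precision. Tlr4, at a few CPM, had 95% intervals wider than the other 9 genes.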

Other observations

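Cholangiocyte markers, the genes of bile duct cells, were followed as another cell type that a hepatocyte preparation can hold. Beside the marker counts below, 54.5% of all genes tested were called in KO against WT with vehicle, 27.5% higher and 26.9% lower. Of 8 tested markers, 5 were higher and 1 was lower in KO with vehicle, with a median log2 fold change of 0.99, and the list of 10 summed to 550.5 to 713 CPM in KO vehicle and 403 to 619 CPM in WT vehicle libraries, which overlap. Neutrophil and lymphocyte markers were near absent: 1 of 10 could be tested, and the list summed to 1.60 to 2.12 CPM in KO vehicle and 2.69 to 4.58 CPM in WT vehicle libraries. Of 18 endothelial markers, 1 was higher and 1 lower in KO with vehicle, and of 13 tested stellate cell markers, 4 were higher and 3 lower. Of 10 hepatocyte markers, 1 was higher and 5 were lower, with a median of -0.60.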
